A study of Mus musculus with 6 samples.

Results

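The core histones H2A, H2B, H3 and H4 form the protein spool of the nucleosome, and their genes were followed here in C1498 cells given the PARP-1 inhibitor PJ34. Members were all probe sets whose gene symbol in the platform table names a replication-dependent H2A, H2B, H3 or H4 gene, under the current or the older nomenclature, plus the sets of 8 variant genes. These were H2ax, H2az1, H2az2, H2aj, H3f3a, H3f3b, Macroh2a1 and Macroh2a2. The rule used no measured value and found 64 of the 35556 probe sets of the array. Of these, 50 were replication-dependent (6 for H2A, 19 for H2B, 13 for H3 and 12 for H4) and 14 were variants.

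C1498 is a mouse leukaemia line on the C57BL/6J background, which the labels give as acute myeloid leukaemia (AML). One group was treated with 20 μM PJ34 for 48 h and the other with the vehicle, PBS, for the same time; each was hybridised to 3 Affymetrix Mouse Gene arrays, and the cells carried no other agent or allele in the labels. A value below is a log2 expression value after RMA, which corrects background and sets the 6 arrays to a common distribution, and a log2 fold change is PJ34 minus PBS. A single line was measured in bulk, so a smaller share of cells of one kind and less RNA per cell cannot be told apart. Probes differ in brightness, so levels of different probe sets cannot be compared closely. They were set beside each other only to mark dim or bright sets, to describe marker lists and to choose a set for a gene.

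Replication-dependent histone genes lie in clusters and are transcribed mainly in S phase, when new DNA must be packed. Their mRNAs mostly end in a stem-loop in place of a poly(A) tail, and proteins that bind this loop set how long such mRNAs last. Which of these ends the mRNAs measured here had was not tested. Variant histone genes lie outside the clusters, and most have only polyadenylated mRNAs and are made throughout the cell cycle. PARP-1 attaches ADP-ribose chains to histones among other proteins. The labelling kit does not depend on a poly(A) tail, so mRNAs of both kinds were labelled.

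Promoters of the clustered genes hold short elements, though not each in every histone type: the octamer, bound by the POU factor Oct-1, the CCAAT box, bound by NF-Y, and the TATA box. The 200 bases before the RefSeq transcription start are shown for the called members of the chromosome 13 cluster with 1 gene and an entry in the RefSeq promoter table (build GRCm38.p6), and for H3f3b, since the results below turn on these genes moving in opposite directions. Capitals mark the octamer (ATTTGCAT), the TATA box (TATAAA) and the CCAAT box (CCAAT), each searched on both strands, and no matches overlapped. H2bc8 and H3c4 were higher with PJ34, and H2bc3, H2ac4 and H4c6 were lower. H3f3b is the variant gene that was higher.
H2bc8, chr13:23571200-23571399, plus strand: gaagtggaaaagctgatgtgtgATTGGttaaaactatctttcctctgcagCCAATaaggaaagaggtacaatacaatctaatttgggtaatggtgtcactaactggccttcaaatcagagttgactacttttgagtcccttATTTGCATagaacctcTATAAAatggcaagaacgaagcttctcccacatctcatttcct
H3c4, chr13:23575563-23575762, plus strand: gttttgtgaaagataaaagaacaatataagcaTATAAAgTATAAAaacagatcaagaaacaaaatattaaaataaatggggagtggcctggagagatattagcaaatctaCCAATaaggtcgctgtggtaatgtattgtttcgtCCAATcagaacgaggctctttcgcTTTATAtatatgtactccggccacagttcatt
H2bc3, chr13:23746534-23746733, plus strand: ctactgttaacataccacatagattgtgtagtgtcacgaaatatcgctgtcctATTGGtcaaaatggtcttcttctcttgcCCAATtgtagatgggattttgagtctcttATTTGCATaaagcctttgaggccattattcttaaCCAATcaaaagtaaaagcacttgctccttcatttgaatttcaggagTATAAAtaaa
H2ac4, chr13:23750888-23751087, plus strand: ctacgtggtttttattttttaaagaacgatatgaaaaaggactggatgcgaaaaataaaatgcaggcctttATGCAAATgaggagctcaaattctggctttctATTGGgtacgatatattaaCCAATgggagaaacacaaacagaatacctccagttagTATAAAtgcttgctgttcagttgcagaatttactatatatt
H4c6, chr13:23551669-23551868, minus strand: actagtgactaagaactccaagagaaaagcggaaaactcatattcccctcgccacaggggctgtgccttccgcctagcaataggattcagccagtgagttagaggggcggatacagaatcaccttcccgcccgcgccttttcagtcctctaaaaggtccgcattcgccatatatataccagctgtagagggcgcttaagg
H3f3b, chr11:116024505-116024704, minus strand: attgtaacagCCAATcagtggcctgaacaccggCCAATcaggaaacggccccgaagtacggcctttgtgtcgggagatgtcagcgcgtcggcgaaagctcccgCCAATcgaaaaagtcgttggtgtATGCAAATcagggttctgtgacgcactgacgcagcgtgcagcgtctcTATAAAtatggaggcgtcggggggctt

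The octamer stood 59 bases before the start of H2bc8, which was higher with PJ34, and 90 and 129 bases before the starts of H2bc3 and H2ac4 (in H2ac4 on the minus strand), which were lower. Among called replication-dependent members with 1 gene and a window, 1 of 3 higher and 2 of 3 lower held the octamer. H2bc4 and H2bc21, both higher, had no window, and a link of the octamer to direction was not tested. H3f3b also held the octamer, on the minus strand 74 bases before its start. Within 250 bases before the start, the octamer was found in 1.6% of the 32851 windows of the table, in 6 of 17 H2A windows (35.3%), in 7 of 16 H2B windows (43.8%) and in none of 10 H3 and 11 H4 windows. CCAAT was found in 33.8% of all windows, in all 17 H2A and 16 H2B windows, in 8 of 10 H3 windows and in 3 of 11 H4 windows. TATAAA was found in 12.4% of all windows and in 7, 8, 4 and 6 windows of H2A, H2B, H3 and H4. H4c6 held none of the motifs in the stretch printed, which says only that these letters are not in it.

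Of the 64 core histone members, 8 rose and 3 fell with PJ34 (limma, adjusted p below 0.05). That is 17.2% of the members, where 3.07% of the 23412 probe sets tested were called, 1.72% higher and 1.35% lower. The median log2 fold change was -0.07 over the members, against 0.0029 over all sets tested. Of the members, 39 lay below 0 and 25 above. The groups did not overlap in 13 members that were higher and in 22 that were lower, where 12.6% and 10.9% of all sets tested did so. Adjusted p-values are over all sets tested. With 3 arrays in each group, the smallest p of an exact permutation test (two-sided) is 0.1, and 35 members reached it.

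**Figure D1:**
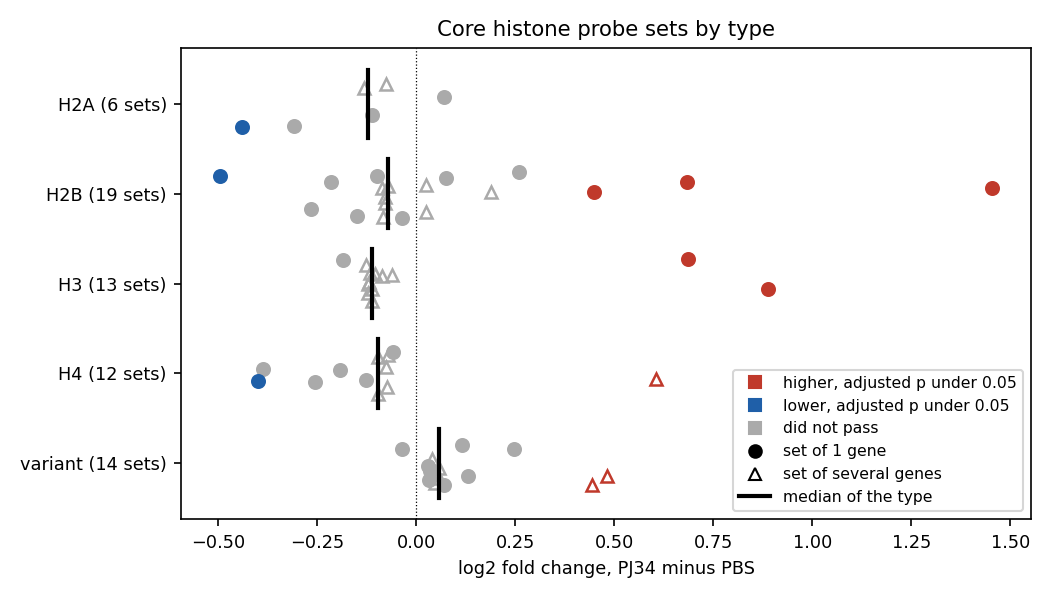
Log2 fold change (PJ34 minus PBS) of each of the 64 core histone probe sets by type, with circles for sets of 1 gene, open triangles for sets of several genes, colour for the call (limma, adjusted p below 0.05) and a bar at the median of each type. Coloured H2B points lie on both sides of 0, with H2bc4 at 1.45 and H2bc3 at -0.50, and the triangles of the replication-dependent types lie near 0 except the H4 set of H4c17 and H4c11 at 0.60 and the H2B set of H2bc6 and H1f4 at 0.19.

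The size of a change went with how a probe set was assigned to genes. Of the 50 replication-dependent sets, 24 were assigned to 1 gene, 2 to a pair of genes and 24 to 11 or more. The coding sequences of genes of 1 type are known to be nearly identical. Among the 24 sets with 1 gene, 5 were higher and 3 lower, and their log2 fold changes ran from -0.50 to 1.45 with a median of -0.12. Among the 24 sets with 11 or more genes, none was called, where 3.07% of all sets tested were. Their log2 fold changes ran from -0.13 to 0.03, and the adjusted p-values from limma ran from 0.362 to 0.89. None of these 24 had an unadjusted limma p under 0.05, where 16.7% of all sets tested did. The SD of the log2 fold changes was 0.414 over the members with 1 gene, variants included, and 0.0398 over those with 11 or more.

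These shared sets lay between 10.72 and 12.62 on the 6 arrays, where the highest value of any probe set was 12.93, so a fold change in them sits near the top of the measured range. They also sum over many genes, and the part of either fact in the narrow spread was not tested. Their median was 12.1, 11.93 and 12.03 on the 3 PJ34 arrays, against 12.09, 12.12 and 12.15 on the 3 PBS arrays. In 22 of the 24, replicate 2 of PJ34 was the lowest of the 6 arrays. The groups did not overlap in 12 of the 24, all lower with PJ34, where 10.9% of all sets tested were lower without overlap. The sets are not independent of each other, since they hold the same genes in part, and 2 pairs of members carry identical values on every array, so 62 distinct rows of values stand behind the 64 members.

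**Figure D2:**
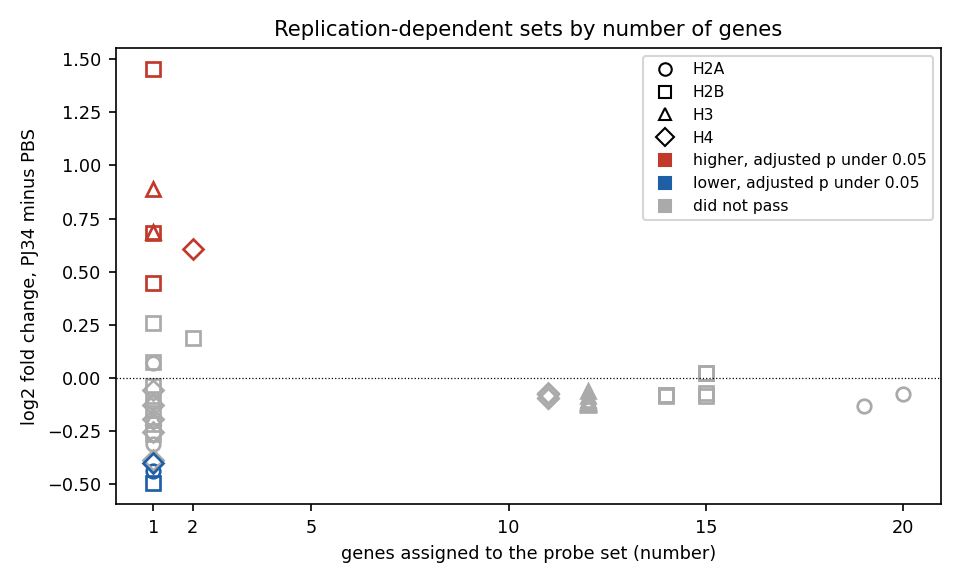
Log2 fold change (PJ34 minus PBS) of each replication-dependent member against the number of genes its probe set is assigned to, with marker shape for the histone type and colour for the call. Sets with 1 or a pair of genes spread from -0.50 to 1.45, while the 24 sets with 11 to 20 genes stay between -0.13 and 0.03.

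H2B genes held the members that moved most in both directions. H2bc4 (formerly Hist1h2bc) had values of 11.25, 11.44 and 11.38 with PJ34, against 9.94, 9.83 and 9.93 with PBS. All 3 PJ34 arrays lay more than 1 log2 unit above every PBS array, and the log2 fold change was 1.45 (SE 0.0726, limma adjusted p = 0.000114), or 2.74-fold (95% CI 2.44 to 3.07). The study chose H2bc4 for a table of changed genes on these same arrays, so its direction is not independent evidence. H2bc21 (formerly Hist2h2be), an H2B gene of the chromosome 3 cluster, had values of 8.08, 8.37 and 8.17 with PJ34, against 7.42, 7.58 and 7.57 with PBS. The groups stood apart, and the log2 fold change was 0.68 (SE 0.0894, adjusted p = 0.00768), or 1.61-fold (95% CI 1.39 to 1.85).

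H2bc8 (formerly Hist1h2bg) had values of 9.00, 9.32 and 9.00 with PJ34, against 8.62, 8.70 and 8.66 with PBS. Replicate 2 stood above the other two PJ34 arrays, which were themselves above all PBS arrays. Its log2 fold change of 0.45 (SE 0.0944, adjusted p = 0.044) passed in only 1 of the 6 fits that left out an array, the one without PJ34 replicate 2, and it was lost when arrays were centred on their medians (0.43). In the other direction, H2bc3 (formerly Hist1h2bb) had values of 8.92, 8.88 and 9.02 with PJ34, against 9.37, 9.42 and 9.51 with PBS. Every PJ34 array was below every PBS array, and the log2 fold change was -0.50 (SE 0.0704, adjusted p = 0.00955), or a ratio of 0.709 (95% CI 0.635 to 0.793).

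The remaining 7 H2B sets with 1 gene did not pass. H2bc1, a gene known for its expression in testis, had values of 5.04, 5.07 and 5.32 with PJ34, against 5.48, 5.35 and 5.40 with PBS (log2 fold change -0.26, adjusted p = 0.162). H2bc22 had 4.57, 5.30 and 5.01 with PJ34, against 4.81, 4.76 and 4.53 with PBS (0.26, SE 0.167, adjusted p = 0.503), and H2bu2 had 6.26, 6.21 and 6.16 with PJ34, against 6.17, 6.13 and 6.10 with PBS (0.07, adjusted p = 0.622). The groups overlapped in both of these, and PJ34 replicate 1 of H2bc22 was near the lowest PBS array. For H2bc14, H2bc9, H2bc18 and the transcribed pseudogene H2bu1-ps, the log2 fold changes were -0.22, -0.15, -0.10 and -0.04. One further H2B set, shared by H2bc6 and the linker histone gene H1f4, had 8.31, 8.35 and 8.28 with PJ34, against 8.13, 8.11 and 8.14 with PBS (log2 fold change 0.19, adjusted p = 0.146), with no overlap between the groups.

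Of the 4 H2A sets with 1 gene, 1 was lower and none was higher. H2ac4 (formerly Hist1h2ab) had values of 10.09, 10.13 and 10.12 with PJ34, against 10.46, 10.61 and 10.59 with PBS. The 3 PJ34 arrays lay close together and below all PBS arrays, and the log2 fold change was -0.44 (SE 0.0658, adjusted p = 0.0117), or a ratio of 0.737 (95% CI 0.664 to 0.818). The call was lost without PJ34 replicate 1, PBS replicate 2 or PBS replicate 3. H2ac15 had values of 8.99, 8.82 and 9.00 with PJ34, against 9.23, 9.20 and 9.33 with PBS. Its groups did not overlap, but its log2 fold change of -0.31 had an adjusted p of 0.0703. H2ac8 had 5.21, 5.75 and 5.34 with PJ34, against 5.27, 5.30 and 5.52 with PBS, with overlap and a log2 fold change of 0.07 (adjusted p = 0.862), and the log2 fold change of H2ac1, known from testis, was -0.11.

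A further H2A gene is no member, since the platform table gives its probe set no gene. Hist1h2ac (now H2ac6), which the study's table of changed genes names, had values of 5.57, 5.86 and 5.53 with PJ34, against 4.36, 4.30 and 4.88 with PBS. Its log2 fold change was 1.14 (SE 0.155, adjusted p = 0.00843), or 2.2-fold, and it passed in all 6 fits that left out an array. The call was lost when all 35556 sets were tested and by the t-test of the study's methods after adjustment. It too was chosen on these arrays by the study.

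H3 had few sets of its own, and 2 of the 3 with 1 gene were higher. H3c4 (formerly Hist1h3d) had values of 7.30, 7.71 and 7.36 with PJ34, against 6.24, 6.76 and 6.70 with PBS. The groups did not overlap, and the log2 fold change was 0.89 (SE 0.154, adjusted p = 0.0215), or 1.85-fold (95% CI 1.45 to 2.36). The call was lost without PJ34 replicate 2, PJ34 replicate 3 or PBS replicate 3. H3c15 (formerly Hist2h3c2) had 7.48, 7.66 and 7.49 with PJ34, against 6.72, 6.99 and 6.87 with PBS. The log2 fold change was 0.68 (SE 0.0874, adjusted p = 0.00695). The lowest PJ34 array was above the highest PBS array. The third set, H3c7, was dimmer than the median probe set and had a log2 fold change of -0.19 (adjusted p = 0.31).

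All 6 H4 sets with 1 gene had log2 fold changes below 0, while the single H4 set of a gene pair was higher. H4c6 (formerly Hist1h4f) had values of 9.73, 9.65 and 9.83 with PJ34, against 10.09, 10.09 and 10.21 with PBS. Its log2 fold change was -0.40 (SE 0.073, adjusted p = 0.0254), or a ratio of 0.758 (95% CI 0.675 to 0.85), with no overlap. Of the 6 fits that left out an array, it passed only without PJ34 replicate 3. H4c14, of the chromosome 3 cluster, had 10.90, 10.58 and 10.97 with PJ34, against 11.20, 11.11 and 11.30 with PBS (log2 fold change -0.39, SE 0.108, adjusted p = 0.105). PJ34 replicate 2 was its lowest array. H4c3, H4c4, H4c8 and H4c9 had log2 fold changes of -0.26, -0.19, -0.13 and -0.06, and none passed.

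The set shared by H4c17 and H4c11 had values of 8.36, 8.49 and 8.46 with PJ34, against 7.69, 7.87 and 7.93 with PBS. Its groups stood clearly apart, and the log2 fold change was 0.60 (SE 0.0794, adjusted p = 0.00769), or 1.52-fold (95% CI 1.34 to 1.72). Which gene of the pair gave the signal cannot be told from this set. Of the 9 replication-dependent sets called, H2bc4, H3c15, H2bc21, H2bc3 and this H4 set passed in all 6 fits that left out an array. When all 35556 sets were tested, H2bc4, H3c15 and this H4 set still passed and the other 6 did not, and by the methods' t-test after adjustment H2bc4 alone passed. At an unadjusted p under 0.05, the methods' t-test gave 12 higher and 9 lower members, where 8.35% of all sets tested were higher and 7.59% lower.

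**Figure D3:**
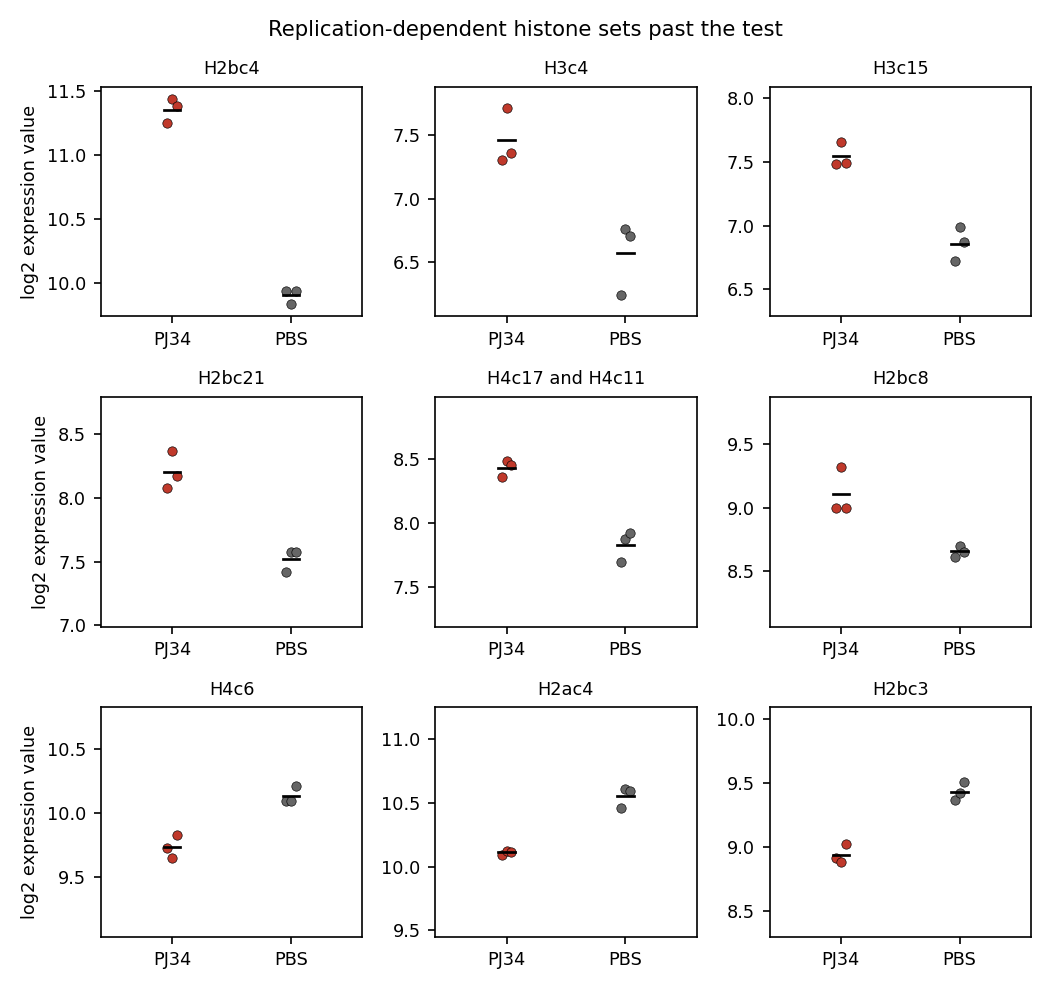
Log2 expression on each array for the 9 replication-dependent members that passed, with PJ34 left of PBS, each point 1 array and each line the group mean. The panels have their own ranges of equal height, and in none do the 3 PJ34 arrays overlap the 3 PBS arrays.

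By type, the replication-dependent members comprised 0 higher and 1 lower of 6 sets for H2A, 3 higher and 1 lower of 19 for H2B, 2 higher and 0 lower of 13 for H3, and 1 higher and 1 lower of 12 for H4. Their median log2 fold changes were -0.12, -0.07, -0.11 and -0.10. Each type median was therefore just below 0, but the shared sets weighed on it. For H3, 10 of the 13 sets had 11 or more genes, with a median of -0.115, while the 3 with 1 gene had a median of 0.68. The medians of the sets with 1 gene were -0.21 for H2A, -0.04 for H2B and -0.22 for H4. Differences between the types were not tested. Over all 50 the median was -0.09, with 6 higher and 3 lower (18.0% called, where 3.07% of all sets tested were). The groups did not overlap in 7 that were higher and 22 that were lower, where 12.6% and 10.9% of all sets tested did so. Of those 22, 12 were shared sets, which hold the same genes in part.

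One PJ34 array stood at the edge of many members. Replicate 2 of PJ34 was the highest PJ34 array in all 8 members that were higher, and the lowest PJ34 array in 2 of the 3 that were lower, the exception being H2ac4. The 8 higher members had medians of 8.68, 8.90 and 8.73 on the 3 PJ34 arrays, against 8.15, 8.29 and 8.29 on the PBS arrays. The 3 lower members had medians of 9.73, 9.65 and 9.83 with PJ34, against 10.09, 10.09 and 10.21 with PBS. These medians are over members chosen for the difference and only describe the arrays. Without that array, 7 members were higher and 2 were lower.

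Several called genes stood next to each other in the RefSeq gene order. In the chromosome 13 cluster of 56 histone genes, H2bc3 and H2ac4, both lower, were consecutive. H2bc4 was the histone gene next to Hist1h2ac, and both were higher. H2bc8, H3c4 and H2bc4 lay at places 34, 37 and 42 of the 56, between the linker histone genes H1f3 and H1f2 at places 31 and 45, which were also higher. Within that stretch, H4c4, H4c3, H2ac8 and the linker gene H1f6 did not pass, so the calls were not shared by all of it. H4c6, at place 30 next to H1f3, was lower. The set shared by H4c11 and H4c17, genes at places 6 and 16, was also higher and lies outside that stretch. In the chromosome 3 cluster of 10, H2bc21 and H3c15 were consecutive and both higher. Neighbouring genes were not tested as a group.

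**Figure D4:**
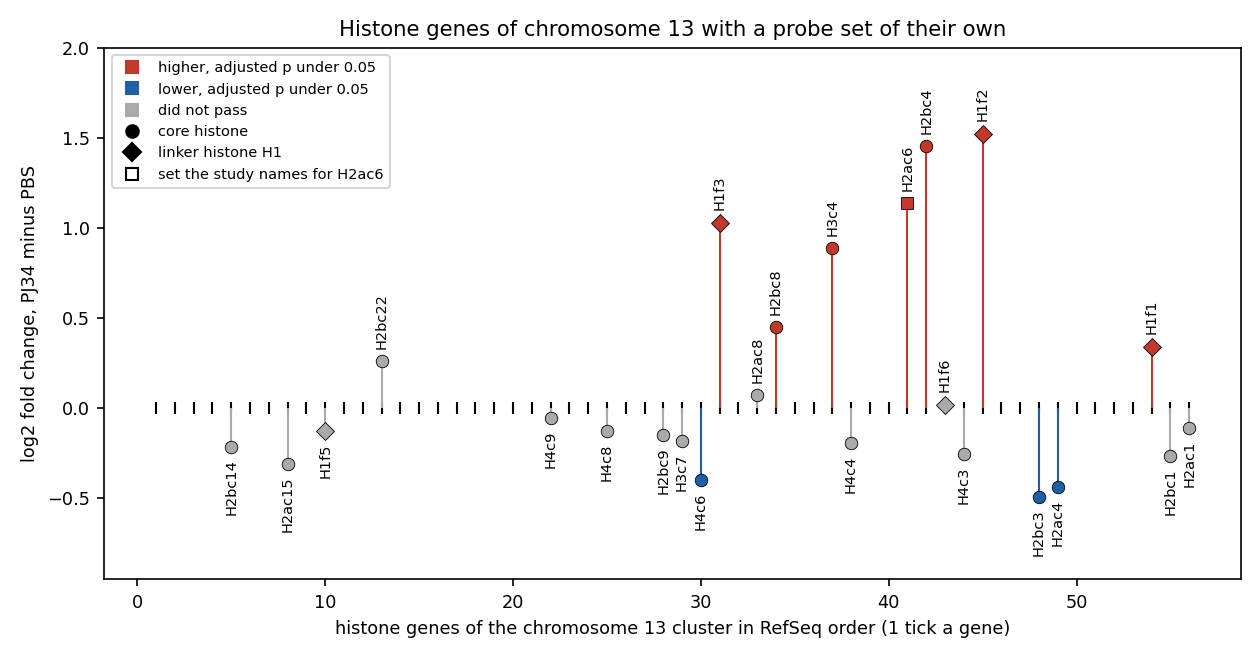
Log2 fold change (PJ34 minus PBS) of histone probe sets with 1 gene, and of the set the study names for Hist1h2ac, along the chromosome 13 cluster, against the place of the gene in RefSeq order, with marker shape for core and linker genes and colour for the call. Core histone members with 1 gene that were higher lie at places 34 to 42, and the adjacent pair H2bc3 and H2ac4 lies below 0. The higher set shared by H4c11 and H4c17, at places 6 and 16, is not drawn.

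Among the variants, only the sets of H3f3b passed, 2 higher and 0 lower of 14 (14.3%), where 3.07% of all sets tested were called. Both are assigned to the same genes, so they are not separate cases. H3f3b encodes H3.3, the H3 form that is placed in chromatin outside S phase as well as within it. It has 2 sets, each also assigned to the predicted gene Gm6485, so the signal cannot be given to H3f3b alone. One set had values of 11.02, 11.23 and 11.04 with PJ34, against 10.55, 10.68 and 10.61 with PBS. The log2 fold change was 0.48 (SE 0.0783, adjusted p = 0.0167), or 1.40-fold (95% CI 1.23 to 1.58). The other had 11.13, 11.35 and 11.15 with PJ34, against 10.72, 10.84 and 10.75 with PBS, and its log2 fold change was 0.44 (SE 0.0776, adjusted p = 0.0219). In both, every PJ34 array was above every PBS array. Both calls were lost on leaving out any one of the 3 PBS arrays, and the second was also lost without PJ34 replicate 1 or PJ34 replicate 3.

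H3f3a encodes the same H3.3 protein, and none of its 5 sets passed. The 4 sets shared with the predicted gene Gm12657 had log2 fold changes of 0.04 to 0.06 and adjusted p-values of 0.703 to 0.81. One had 9.60, 9.62 and 9.58 with PJ34, against 9.55, 9.51 and 9.56 with PBS, and another 10.04, 10.03 and 10.00 with PJ34, against 9.97, 9.97 and 9.95 with PBS. In these 2 sets every PJ34 array was above every PBS array. The remaining sets overlapped, with 9.94, 9.92 and 9.89 with PJ34, against 9.86, 9.86 and 9.89 with PBS, and with 10.05, 10.03 and 9.98 with PJ34, against 9.97, 9.97 and 9.99 with PBS. The set with H3f3a alone was dimmer than the median set, at 3.87, 3.80 and 3.86 with PJ34 and 3.81, 3.87 and 3.76 with PBS.

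H2ax, the H2A variant phosphorylated around DNA breaks, had values of 9.25, 9.21 and 9.21 with PJ34, against 8.91, 9.04 and 8.98 with PBS. The groups did not overlap, but the log2 fold change of 0.25 (SE 0.0629) had an adjusted p of 0.0796 from limma, with a fold of 1.19 (95% CI 1.07 to 1.31). H2ax passed when the fit used an intensity trend with robust variances (adjusted p = 0.00672) and when dim probe sets were left out. H2aj, an H2A variant linked to senescence in human cells, had 7.94, 7.87 and 7.83 with PJ34, against 7.81, 7.74 and 7.74 with PBS (log2 fold change 0.12, adjusted p = 0.418).

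The H2A.Z genes, whose product sits around transcription start sites, did not pass. H2az1 had log2 fold changes of 0.04 and 0.03 in its 2 sets, one with 11.17, 11.20 and 11.19 with PJ34, against 11.11, 11.18 and 11.17 with PBS, the other with 11.47, 11.49 and 11.47 with PJ34, against 11.41, 11.47 and 11.46 with PBS. H2az2 had 8.03, 7.90 and 7.97 with PJ34, against 7.84, 7.95 and 7.89 with PBS (log2 fold change 0.07, 95% CI -0.08 to 0.22). Macroh2a1, which has a splice form that binds ADP-ribose through its macrodomain, had 9.70, 9.81 and 9.71 with PJ34, against 9.77, 9.77 and 9.79 with PBS (log2 fold change -0.04, adjusted p = 0.837). Macroh2a2 had 4.54, 4.28 and 4.38 with PJ34, against 4.20, 4.19 and 4.43 with PBS (0.13, adjusted p = 0.568), and its mean over the arrays was below the median level. The median over the 14 variant sets was 0.06, and 6 of them had groups that did not overlap, all higher with PJ34, where 12.6% of all sets tested were higher without overlap. That the other variants missed the threshold does not show that they were equal in both groups.

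**Figure D5:**
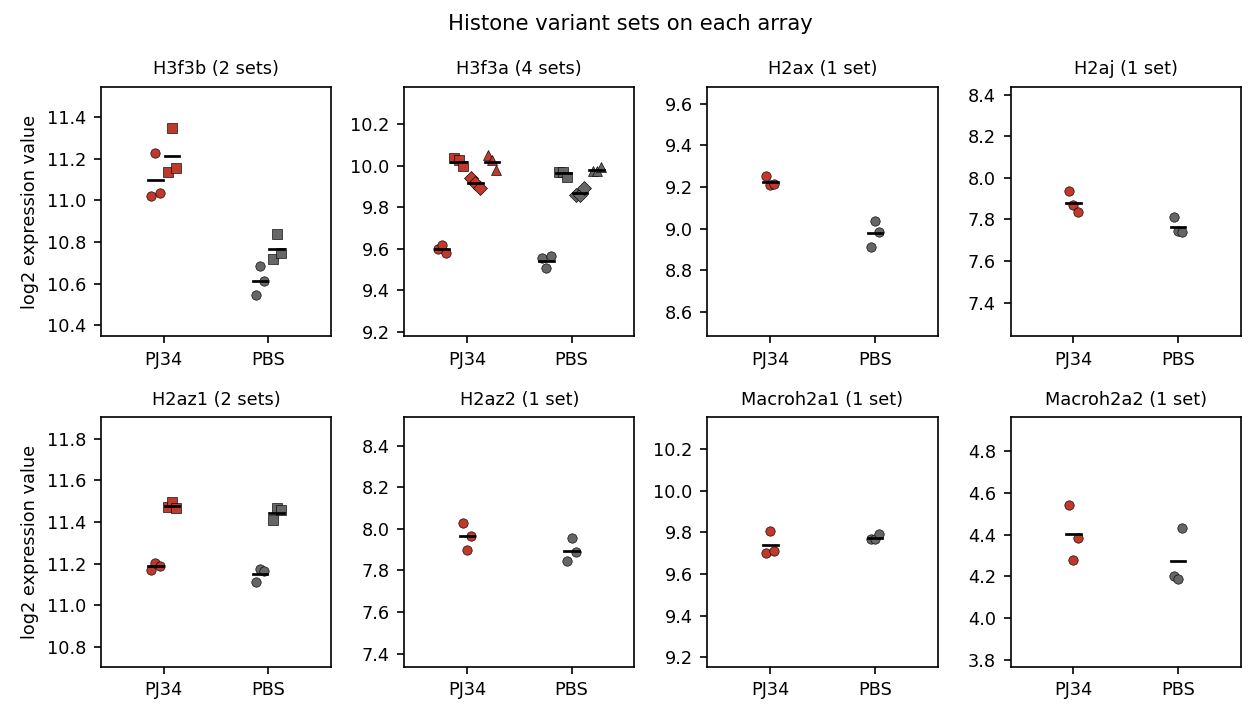
Log2 expression on each array for the 8 variant genes, with PJ34 left of PBS, each point 1 array and each line the group mean of a probe set. The panels have their own ranges of equal height, the set with H3f3a alone is not drawn, and PJ34 arrays are all above PBS arrays in both sets of H3f3b, in 2 of the 4 sets drawn for H3f3a, in H2ax and in H2aj.

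Of the genes for proteins that mature and place histones, 1 passed, where 3.07% of all sets tested did. Of 32 genes for histone pre-mRNA processing and decay, none was called, with 8 at an unadjusted p under 0.05, which 16.7% of all sets tested reached, and a median log2 fold change of 0.06. Slbp, which binds the stem-loop, was at 0.09 and Npat, the activator of the clusters, at 0.13, and neither passed. Of 36 histone chaperones measured of 40 listed, 6 had an unadjusted limma p under 0.05 and 1 was called, as higher. This was Set, which shields histone tails from acetylation, with values of 5.99, 6.17 and 5.79 with PJ34, against 5.52, 5.33 and 5.26 with PBS (log2 fold change 0.61, SE 0.108, adjusted p = 0.0227). The call was lost without PJ34 replicate 1, PJ34 replicate 2, PBS replicate 2 or PBS replicate 3. Set has 2 probe sets with 1 gene, and only the one with the highest mean over the arrays was used. The same rule held for every listed gene.

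Of 51 genes of DNA replication and S phase measured of 52, 2 were lower and none was higher, with a median of -0.02. Of all sets tested, 3.07% were called. An unadjusted limma p under 0.05 was found for 16 of the 51, which 16.7% of all sets tested reached. Tk1, thymidine kinase, had values of 8.12, 7.79 and 8.0 with PJ34, against 8.37, 8.57 and 8.44 with PBS (log2 fold change -0.49, adjusted p = 0.034). Rfc4, a subunit of the clamp loader, had 9.53, 9.61 and 9.64 with PJ34, against 9.93, 9.88 and 9.89 with PBS (-0.31, adjusted p = 0.0363). Tk1 passed only without PJ34 replicate 1, and Rfc4 in none of the fits that left out an array. Tk1 also has 2 probe sets with 1 gene, of which the brighter is given. Pcna, the sliding clamp, was at 0.03 and Mcm2, of the replicative helicase, at 0.10, with neither called. Most linker histone genes lie in the same chromosome 13 cluster, and 3 of the 6 measured of 8 were higher. H1f2 was at 1.53 and H1f3 at 1.03, both chosen by the study on these arrays, and H1f1 at 0.34 (adjusted p = 0.0351), which passed in none of those fits.

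The normalization sets the arrays to a common distribution, so their medians, between 4.41 and 4.46, say nothing of their depth of signal. Correlations between arrays were 0.992 to 0.995 within groups and 0.992 to 0.994 between them. In the check of the line against its label, 9 of 13 myeloid markers lay below the median level on all arrays, Spi1, Csf1r, Mpo and Kit among them, and the highest of the list, Fcgr1, averaged 7.454 with PJ34 and 6.821 with PBS. Of 13 T and NK cell markers, 3 lay below it on all arrays (Klrb1c, Nkg7 and Gzmb). Cd3e averaged 10.56 with PJ34 and 10.38 with PBS, and Cd3d 4.712 with PJ34 and 4.812 with PBS. Of the marker lists, 2 of 13 myeloid genes (Fcgr1 and Cd68), 3 of 13 T and NK cell genes (Cd7, Cd28 and Gzma) and 0 of 4 B cell genes were higher with PJ34, and none was lower. The median level of the myeloid list was 3.591 with PJ34 and 3.696 with PBS. It was 4.581 with PJ34 and 4.554 with PBS for the T and NK list, and 3.436 with PJ34 and 3.396 with PBS for the B list. The part of these genes in the histone values was not tested.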

How the data were processed

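RNA of C1498 cells was measured on 6 arrays, 3 per group. The authors summarised them with RMA in Affymetrix Expression Console 1.3.1 and deposited log2 values, 1 per probe set and array, background corrected and quantile normalized. These values were used unchanged. Genes came from the platform annotation: 21789 probe sets had 1 gene, 1621 had several and 12146 had none. The sets with a gene, and 2 more that the study names, were fitted with limma 3.58.1 in R 4.3.3 (lmFit and eBayes, PJ34 minus PBS), with Benjamini-Hochberg adjustment over all 23412 and a call at an adjusted p under 0.05. RMA quantile normalization hides a shift shared by most genes. The study speaks of 3 independent experiments, while the labels do not say that arrays came from separate cultures. The p-values measure the spread between these arrays, which the labels do not show to be biological, and 3 arrays per group limit the precision.

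Values on each array are given for called members, for the variants, and for the 3 uncalled sets with 1 gene that rose or fell most. The members and lists were chosen with earlier results of these data known. Alternatives were array centring, an intensity trend with robust variances, dropping dim sets, testing all 35556 sets, dropping several-gene members, the replicate number as a block, leaving out each array, and the methods' t-test.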

Additional observations from a re-analysis of the deposited data

How the results depend on the processing

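The median log2 fold change of the core histone members stayed below 0, from -0.0952 to -0.0367, under the alternatives that change values, arrays or members. No called result changed direction under these. Testing all sets, the trend, the block and the t-test leave fold changes as they were, so they could not move the median or a direction. The uncalled H2ac8, at 0.07, was at -0.09 without PJ34 replicate 2. Counts of calls moved more. Among all sets tested, 403 higher and 315 lower became 112 and 76 with all 35556 sets tested, 1009 and 921 with an intensity trend and robust variances, 893 and 780 without dim sets, and 78 and 65 by the methods' t-test after adjustment. Among core histone members, 8 and 3 became 3 and 0 with all sets tested and 1 and 0 by the t-test, while those lower became 8 with the trend and 6 without dim sets. Dropping several-gene members left 5 higher. The replication-dependent members changed likewise: 3 and 0 with all sets tested, 1 and 0 by the t-test, and 8 and 6 lower with the trend and without dim sets. No variant was higher with all sets tested or by the t-test (0 each). Without 1 array, 4 to 7 members were higher and 1 to 3 lower, among them 4 to 5 higher and 1 to 3 lower replication-dependent members and 0 to 2 higher variants. Over all sets these fits called between 148 and 282 as higher and between 83 and 321 as lower. Histone mRNA processing genes higher became 4 with the trend and 2 without dim sets. For chaperones, the trend gave 2 higher and 2 lower, dim filtering 2 lower, and all sets or the t-test 0 higher, with 0 to 1 on leaving out an array. For DNA replication genes, higher became 5 with the trend and 4 without dim sets, and lower became 5 with the trend and 0 with all sets tested, by the t-test and with the block, with 0 to 1 on leaving out an array. Linker histones higher became 1 with all sets tested and by the t-test, and 2 on leaving out any array. The replicate numbers share only a number: deviations of same-numbered arrays correlated at -0.013, 0.13 and -0.00915. With the replicate block, all sets gave 222 higher and 143 lower, the core histone members 7 and 3, and H2bc8, Tk1, Rfc4 and H1f1 no longer passed. The trend brought H2ac15 (limma adjusted p = 0.00486), H4c3 (0.0142), H4c4 (0.0217) and H4c14 (0.0319) past the threshold as lower. The H2A set of 19 genes (0.0494) also passed as lower, while H2ax and the set of H2bc6 and H1f4 (0.039) passed as higher. The causes of these changes were not tested. Dim signal limits H3c7, Macroh2a2 and the set with H3f3a alone, whose means lay below the median level.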
